A study of Mus musculus with 3 samples.

Results

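Of the 54752 genes in the count matrices, 10 CC chemokine genes were followed in single cells of the injured mouse heart: Ccl2, Ccl7, Ccl12, Ccl8, Ccl3, Ccl4, Ccl5, Ccl6, Ccl9 and Ccl24. The members were set by name, as CC chemokines of cardiac macrophages, with no threshold on their values. Earlier results of these data were known when they were chosen, and Ccl5 proved hardly present in macrophages. Levels were taken over cells with 500 to 30000 unique molecular identifiers (UMIs, 1 per captured RNA molecule), 500 to 5000 genes and a mitochondrial share under 10%. These limits left 10548 cells, of which 7556 were C1q+ macrophages (C1qa, C1qb and C1qc together at 20 or more UMIs per 10000 UMIs of the cell).

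A total of 3 libraries, 1 per condition, were available, all from C57BL/6 mice taken at postnatal day 13, which was 3 days after surgery at day 10. P10-sham_vehicle hearts had sham surgery and vehicle. P10-MI_vehicle hearts had myocardial infarction (MI) by tying off the left anterior descending coronary artery, and vehicle. P10-MI_SB225002 hearts had the same ligation and the CXCR2 antagonist SB225002. Infarct and border zones of several hearts were pooled, sex was not determined, and viable CD45+F4/80+ cells were sorted, so a library carries no spread between animals. No test, standard error or p-value was possible. Each interval below is an exact 95% interval that covers counting error only, and a condition cannot be told apart from its library. The MI_vehicle library stands in both comparisons, so the values of the one are not independent of the other.

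The C1q genes set the macrophage gate, so the label was checked on macrophage genes that the gate did not use. Adgre1, which encodes F4/80, was at 518, 529 and 438 CPM (UMIs per 1000000 UMIs) in the gated macrophages of sham_vehicle, MI_vehicle and MI_SB225002, and the macrophage growth factor receptor Csf1r at 906, 901 and 746 CPM. Endothelial cells had Adgre1 at 9.64, 7.87 and 26.0 CPM. Because the cells were sorted on F4/80, Adgre1 is a weak check, and neither gene is restricted to macrophages. Ly6c+ monocytes of MI_vehicle and MI_SB225002 had Adgre1 at 139 and 177 CPM and Csf1r at 363 and 271 CPM, lower than in macrophages. The sort also held cells that are not macrophages: macrophages made up 86.8% of the kept cells in sham_vehicle, 69.3% in MI_vehicle and 65.8% in MI_SB225002. Median depth of a macrophage was 8748, 6467 and 5919 UMIs in the same order. The libraries shared between 1260 and 1844 cell barcodes pairwise, and cells with the same barcode were about as alike as cells with other barcodes, with a median r of 0.536 to 0.571 against 0.526 to 0.571. No doublet caller was run, and 643 cells with markers of more than 1 type were kept apart. A set of 24 immediate-early and stress genes, which respond to tissue handling, summed to 5685, 5643 and 3422 CPM in the macrophages of the 3 libraries. This level was alike in sham_vehicle and MI_vehicle and lower in MI_SB225002, and its part in the values below was not tested.

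CC chemokines are small secreted proteins that bind G protein-coupled receptors on leukocytes and draw those cells along a gradient. The monocyte chemoattractant group, Ccl2, Ccl7 and Ccl12, signals through Ccr2, the receptor that lets Ly6c+ monocytes leave the marrow and enter injured tissue. Ccl8 belongs to the same gene neighbourhood but is known in the mouse chiefly as a ligand of Ccr8. Ccl3, Ccl4 and Ccl5 are inflammatory chemokines that draw monocytes and T cells, and Ccl3 and Ccl5 bind Ccr1. Ccl6 and Ccl9 are rodent chemokines that bind Ccr1, and Ccl24 (eotaxin-2) binds Ccr3, the eosinophil receptor.

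Of the members, 9 of 10 lie on mouse chromosome 11, and Ccl24 lies on chromosome 5 (GRCm38, chr5:135569937-135573049, minus strand). Ccl2 (chr11:82035571-82037453), Ccl7 (chr11:82045712-82047525), Ccl12 (chr11:82101845-82103400) and Ccl8 (chr11:82115185-82116799) are all on the plus strand within 81.2 kb. Ccl5 (chr11:83525778-83530518, minus), Ccl9 (chr11:83572919-83578636, minus), Ccl6 (chr11:83587882-83593087, minus), Ccl3 (chr11:83647844-83649355, minus) and Ccl4 (chr11:83662584-83664683, plus) fill another stretch of 139 kb. In the annotation used here no member shared a 50-base stretch of transcript with another member. Ccl9 transcripts shared such a stretch with transcripts of 250 other genes and those of the other members with none, so the Ccl9 count is the one that multi-mapped reads could affect, depending on how the counting treated them.

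Promoters of Ccl12 and Ccl8 are shown because these neighbours, which start within 15.0 kb of each other, had ratios of opposite sign after infarction, and those of Ccl6 and Ccl9 because these neighbours were alike across populations. Each is the RefSeq sequence (GRCm38.p6) from 250 bases before to 50 bases after the gene's start, read along the gene's own strand, and capitals mark a motif match.
Ccl12 (chr11:82101595-82101894, plus strand): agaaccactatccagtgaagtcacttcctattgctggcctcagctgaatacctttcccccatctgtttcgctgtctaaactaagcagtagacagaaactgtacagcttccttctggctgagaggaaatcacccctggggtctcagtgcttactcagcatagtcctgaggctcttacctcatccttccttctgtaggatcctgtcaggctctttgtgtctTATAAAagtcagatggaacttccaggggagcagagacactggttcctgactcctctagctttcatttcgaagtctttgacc
Ccl8 (chr11:82114935-82115234, plus strand): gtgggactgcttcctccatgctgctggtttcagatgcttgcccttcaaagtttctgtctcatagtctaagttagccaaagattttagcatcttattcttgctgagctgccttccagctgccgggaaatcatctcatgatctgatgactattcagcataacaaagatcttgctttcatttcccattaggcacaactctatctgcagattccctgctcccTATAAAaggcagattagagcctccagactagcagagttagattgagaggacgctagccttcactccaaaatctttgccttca
Ccl6 (chr11:83593038-83593337, minus strand): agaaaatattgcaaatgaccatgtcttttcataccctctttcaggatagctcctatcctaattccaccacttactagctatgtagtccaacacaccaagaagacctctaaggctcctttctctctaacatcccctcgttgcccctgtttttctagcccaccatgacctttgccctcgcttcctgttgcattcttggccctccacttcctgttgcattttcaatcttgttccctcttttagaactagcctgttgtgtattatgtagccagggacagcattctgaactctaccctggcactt
Ccl9 (chr11:83578587-83578886, minus strand): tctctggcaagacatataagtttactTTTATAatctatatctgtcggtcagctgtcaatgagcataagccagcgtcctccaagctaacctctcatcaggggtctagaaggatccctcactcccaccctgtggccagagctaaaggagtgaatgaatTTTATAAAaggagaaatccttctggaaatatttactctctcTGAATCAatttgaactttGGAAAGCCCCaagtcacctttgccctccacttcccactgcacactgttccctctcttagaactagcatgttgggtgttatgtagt
The motifs searched on both strands were TATAAA (found in 13.6% of 32851 promoters of this length), the NF-kB type (GGG, any 2 bases, TTTCC; 1.63%), the AP-1 type TGANTCA (7.81%) and the interferon-response type (GAAA, any 2 bases, GAAA; 3.44%). TATAAA began 31 bases before the start in Ccl12 and 32 bases before it in Ccl8, a placement (35 to 28 bases before the start, same strand) held by 1.53% of promoters. Ccl9 held TATAAA further out, at 92 bases on its own strand and at 94 and 224 bases on the other, those at 92 and 94 overlapping, with TGANTCA at 53 bases and the NF-kB type on the other strand at 35 bases. The Ccl6 window held none of the 4 motifs. Of the members, 5 of 10 were in the promoter table, and the fifth, Ccl3, held none of them either. These matches describe letters only.

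Ccl2, Ccl12, Ccl7, Ccl6 and Ccl9 were the abundant members in macrophages, with levels between 280 and 921 CPM over the 3 libraries. Ccl4 stood between 127 and 157 CPM, Ccl3, Ccl8 and Ccl24 between 41.7 and 92.7 CPM, and Ccl5 at 5.97 CPM or less. The levels in CPM are not per length. A captured molecule gives 1 UMI whatever its length, but capture may differ between genes, so this order is only a guide.

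**Figure D1:**
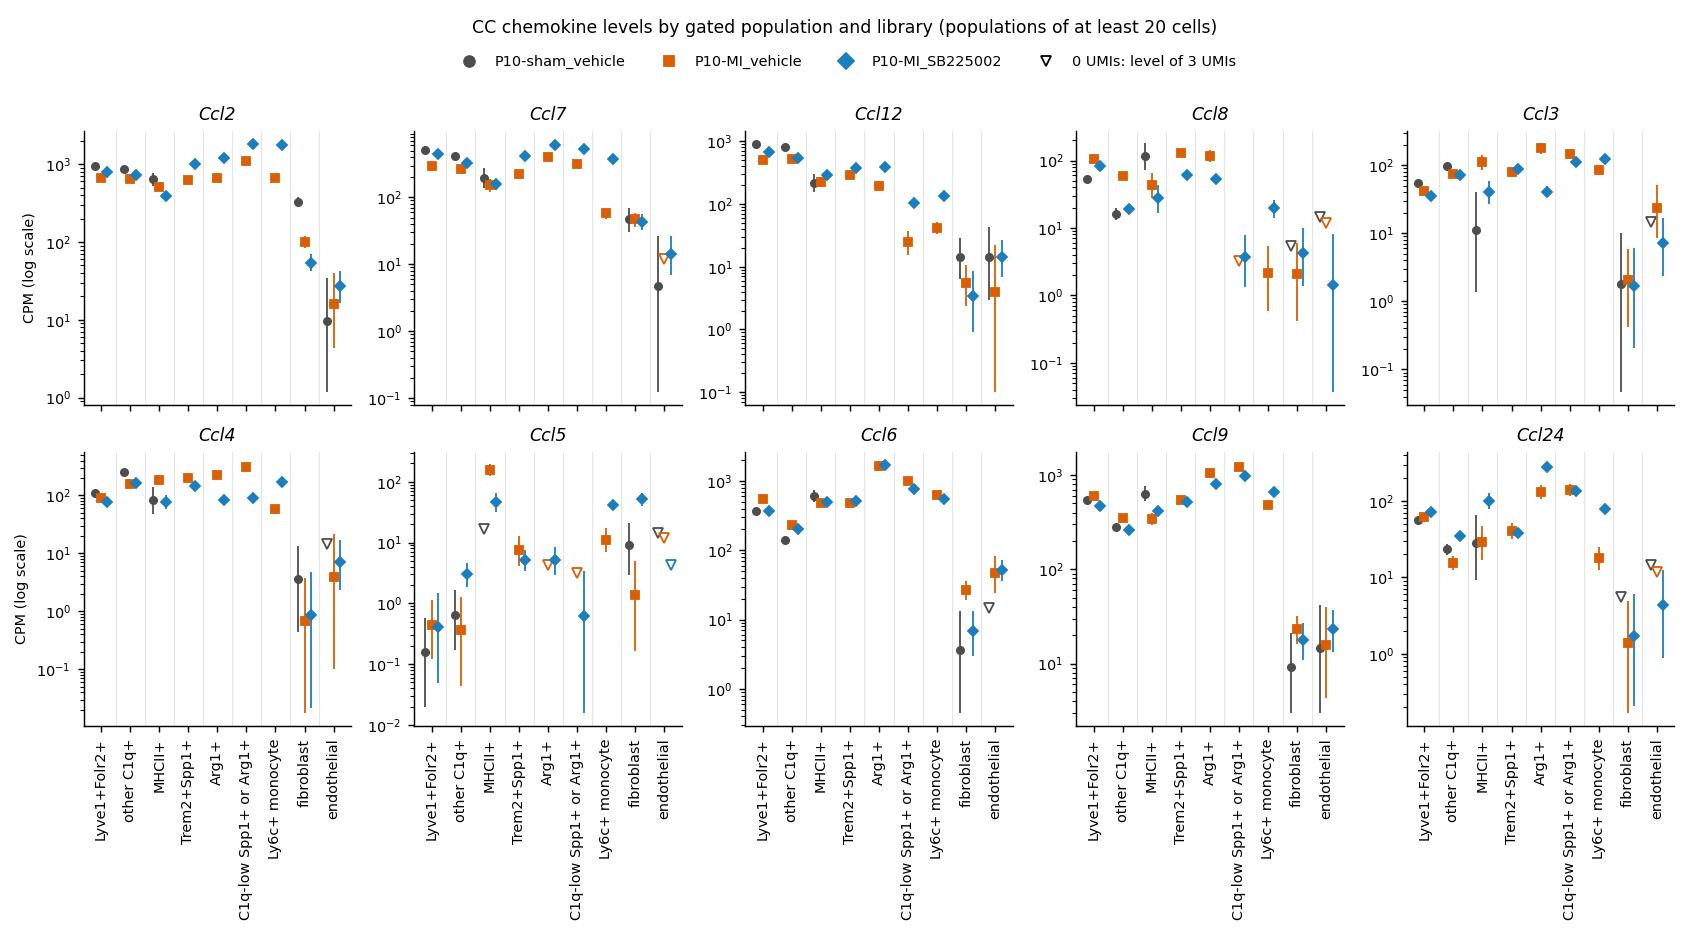
Level of each member in CPM (log axis) for the gated populations with at least 20 cells, 1 point per library, with exact 95% Poisson intervals; open triangles mark the level of 3 UMIs where no UMI was seen. The macrophage points of Ccl2, Ccl7 and Ccl12 lie above the endothelial points in every library, and Ccl5 is below 10 CPM in the Lyve1+Folr2+ and other C1q+ macrophages of every library.

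The first comparison asks how the chemokines of macrophages differed after infarction. Set against sham, 3 of 10 members were at least 1.5-fold higher in MI_vehicle (Ccl8, Ccl5 and Ccl6), where 5.39% of the 12144 genes with at least 50 UMIs were, and 2 of 10 were at least 1.5-fold lower (Ccl7 and Ccl12), where 2.66% of genes were. Ccl5 was counted on 6 and 105 UMIs, 85 of the 105 in 1 cell. Without the highest cell of each library it had 4 and 20 UMIs, short of the 50 needed to be counted. The median log2 ratio of the members was -0.04 and that of all genes -0.05. The members therefore went in both directions, 5 above and 5 below 0. SB225002 against vehicle after infarction is the second comparison. Ccl24 was the 1 member at least 1.5-fold higher (4.06% of 12219 genes were) and Ccl8 the 1 member at least 1.5-fold lower (6.84% of genes were), with a median of 0.05 for the members and -0.05 for all genes.

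**Figure D2:**
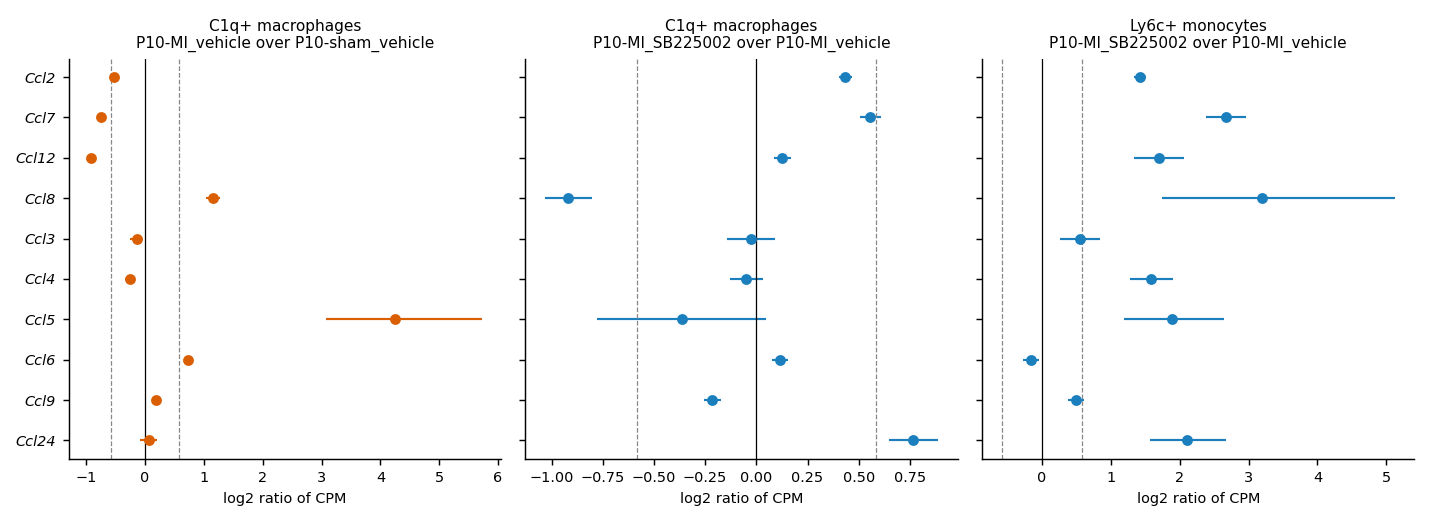
Log2 ratio of each member in C1q+ macrophages for MI_vehicle over sham_vehicle and MI_SB225002 over MI_vehicle, and in Ly6c+ monocytes for MI_SB225002 over MI_vehicle. Bars are exact 95% intervals (counting error only) and dashed lines mark 1.5-fold. In macrophages Ccl7 and Ccl12 lie below the lower line after infarction, and Ccl8 lies above the upper line after infarction and below the lower line with SB225002. In monocytes Ccl8 lies above the upper line, with 45 of its 47 UMIs of MI_SB225002 in 1 cell.

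All of the Ccr2 ligands were lower in infarct than in sham macrophages. Ccl2, the main monocyte attractant, measured 921 CPM (908 to 935) in sham_vehicle, 643 CPM (631 to 655) in MI_vehicle and 869 CPM (857 to 882) in MI_SB225002. Its log2 ratio was -0.52 (-0.55 to -0.48) for infarction and 0.44 (0.40 to 0.47) for SB225002, both short of the 1.5-fold line. Ccl7 measured 469, 280 and 411 CPM, which is 1.68-fold lower after infarction and 1.47-fold higher with SB225002. For both genes the MI_vehicle library was the lowest of the 3 and the MI_SB225002 library came between it and sham. Ccl12, which in mice takes a place much like that of Ccl2, measured 871, 460 and 502 CPM. It was 1.89-fold lower after infarction and differed by only 1.09-fold between SB225002 and vehicle.

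The share of macrophages with a UMI followed the same order. With each cell thinned to 2000 UMIs, Ccl2 was seen in 58.4% of sham_vehicle, 46.1% of MI_vehicle and 48.6% of MI_SB225002 macrophages. Unthinned, the sham_vehicle and MI_vehicle shares were 81.4% and 63.8%. Ccl7 was seen in 40.3%, 25.5% and 29.8% and Ccl12 in 50.4%, 34.9% and 37.3% of thinned macrophages. Endothelial cells, in which UMIs of these genes can come from free RNA, gave 3.03%, 0% and 3.76% for Ccl2 at median depths of 4832, 3346 and 3684 UMIs before thinning. Macrophages were far above this endothelial share in each library. Endothelial cells were the only reference, and other gates may hold more. In B cells Ccl2 had enough UMIs for a ratio, with a log2 value of 2.43 after infarction and 0.70 with SB225002. For Ccl7 the endothelial share was 3.03%, 0% and 3.01% and for Ccl12 9.09%, 0% and 0.752%, again below the macrophage shares. Ccl2 was also uneven among macrophages: the top 10% of cells held 48.6%, 57.6% and 62.0% of its UMIs.

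**Figure D3:**
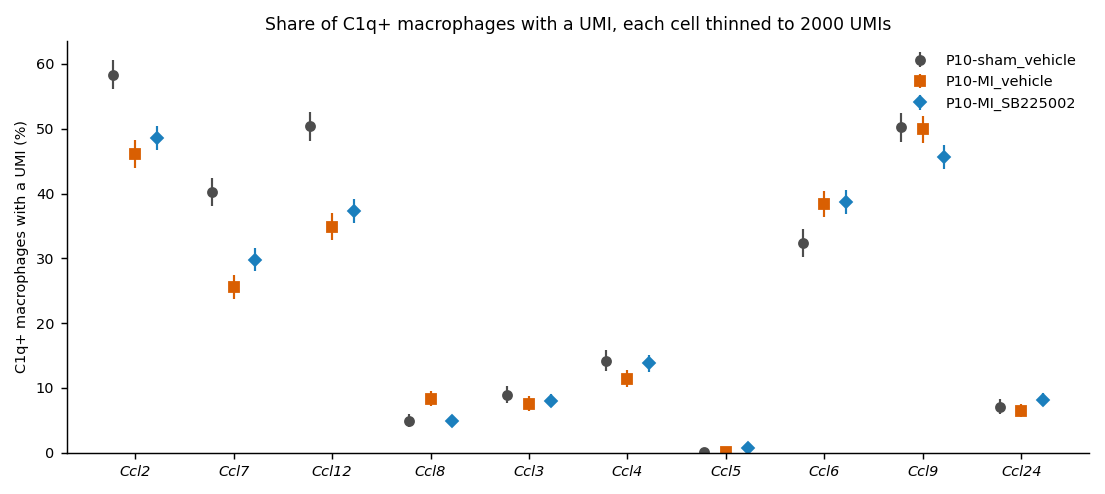
Percent of C1q+ macrophages with at least 1 UMI of each member after thinning to 2000 UMIs a cell, by library, with exact 95% binomial intervals. Ccl2, Ccl7 and Ccl12 are seen in the largest share of cells in sham_vehicle, while Ccl6 is seen in more cells of both infarct libraries than of sham_vehicle.

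Ccl8 went the other way from its neighbour Ccl12. It measured 41.7 CPM (793 UMIs) in sham_vehicle, 92.7 CPM (1631 UMIs) in MI_vehicle and 49.1 CPM (1038 UMIs) in MI_SB225002, and was thus highest in MI_vehicle, with sham and SB225002 close together. The log2 ratios were 1.15 (1.03 to 1.28) and -0.92 (-1.03 to -0.80). Few cells carried it: 4.95%, 8.34% and 4.91% of thinned macrophages had a UMI, and the top 10% of cells held 96.2%, 93.1% and 100% of its UMIs. Thinned endothelial cells had 0 Ccl8 UMIs, which with their small number (33, 41 and 133 cells) allows shares of up to 9.09%, 7.32% and 2.26%, above or near the macrophage shares of sham_vehicle and MI_vehicle. With cells thinned to 1000 UMIs before summing, so that deep cells count no more than shallow ones, the ratios were smaller, at 0.73 and -0.41.

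Ccl3 and Ccl4, the macrophage inflammatory proteins, differed little between libraries over all macrophages, but more within some subsets given below. Ccl3 measured 70.2, 63.6 and 62.5 CPM and Ccl4 157, 131 and 127 CPM in sham_vehicle, MI_vehicle and MI_SB225002. With SB225002 the log2 ratio was -0.03 (-0.14 to 0.09) for Ccl3 and -0.05 (-0.13 to 0.03) for Ccl4. These intervals cover counting error only and do not bound the difference between the libraries. Over the alternative settings given at the end, the SB225002 ratio ran from -0.28 to 0.50 for Ccl3 and from -0.22 to 0.37 for Ccl4. After infarction the log2 ratio was -0.14 for Ccl3, with -0.50 to -0.06 over the settings. For Ccl4 it was -0.26, with -0.58 to -0.15. Ccl3 was seen in 8.93%, 7.56% and 7.99% and Ccl4 in 14.2%, 11.4% and 13.8% of thinned macrophages, against at most 4.88% (Ccl3, 2 of 41 cells) and 1.5% of endothelial cells. These genes also tracked the handling genes within a library, as given below.

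Ccl5, a product of T and NK cells and of activated dendritic cells, was hardly present in macrophages. It had 6, 105 and 98 UMIs in 5, 9 and 28 macrophages, and 85 of the 105 in MI_vehicle came from 1 MHCII+ cell. Its log2 ratios of 4.24 and -0.37 therefore rest on that cell: without the highest cell of each library they were 2.43, on 4 and 20 UMIs, and 1.68, on 20 and 77 UMIs. Thinned shares of 0.102%, 0.138% and 0.717% lie below the shares that 0 of 33, 0 of 41 and 0 of 133 thinned endothelial cells allow (9.09%, 7.32% and 2.26%, or 3 cells), so these shares cannot be told from background. Over whole libraries Ccl5 had 204, 557 and 492 UMIs in 12, 43 and 47 cells. Of these, 184, 342 and 57 UMIs lay in cells with markers of more than 1 type, nearly all of them cells that passed both the T/NK and the C1q limit (5, 19 and 4 cells with 184, 337 and 56 UMIs). MHCII+ C1q-low cells gave 81 UMIs in MI_vehicle and 83 in MI_SB225002, from 4 and 5 cells.

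Ccl6 was the abundant member that was higher in both infarct libraries. It measured 294, 490 and 531 CPM, a log2 ratio of 0.74 (0.69 to 0.79) after infarction and of 0.12 (0.08 to 0.16) with SB225002, and was seen in 32.3%, 38.4% and 38.7% of thinned macrophages. With cells thinned to 1000 UMIs before summing, the ratio after infarction was 0.58, just short of 1.5-fold. The endothelial share for Ccl6 was 0%, 7.32% and 6.02%. Ccl9, the other Ccr1 ligand of the pair, measured 461, 524 and 451 CPM and stayed within 1.5-fold in both comparisons. It was the most evenly spread of the 10 members among macrophages, with 38.5%, 46.1% and 48.3% of its UMIs in the top 10% of macrophages.

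Ccl24 measured 45.1, 47.1 and 80.0 CPM and was thus 1.70-fold higher in MI_SB225002 than in MI_vehicle, with no difference beyond counting error between MI_vehicle and sham_vehicle (log2 ratio 0.06, -0.08 to 0.20). It was seen in 7.09%, 6.45% and 8.13% of thinned macrophages, against 0%, 0% and 1.5% of endothelial cells, where 0 of 33 and 0 of 41 cells allow up to 9.09% and 7.32%, so the shares of sham_vehicle and MI_vehicle cannot be told from background. The SB225002 difference in level was larger than that in the share of cells, and the subsets below show where the UMIs lay.

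Macrophages were split by markers into MHCII+, Arg1+, Trem2+Spp1+, Lyve1+Folr2+ (resident) and other C1q+ cells. The makeup differed between libraries: Lyve1+Folr2+ cells numbered 1338, 1319 and 861, Trem2+Spp1+ cells 9, 163 and 657, and Arg1+ cells 3, 76 and 340. In Lyve1+Folr2+ macrophages, the subset with most cells in both vehicle libraries, the infarct pattern was that of all macrophages. Ccl2 measured 959, 654 and 791 CPM, Ccl7 507, 298 and 450 CPM, and Ccl12 917, 495 and 670 CPM there. Ccl8 (53.9, 107 and 82.0 CPM) and Ccl6 (366, 560 and 372 CPM) were highest in MI_vehicle. Of 9 members with enough UMIs, 2 were at least 1.5-fold higher (Ccl8 and Ccl6; 3.69% of genes) and 2 lower (Ccl7 and Ccl12; 2.07% of genes) after infarction. With SB225002, Ccl7 was higher (5.93% of genes) and Ccl6 lower (5.07% of genes). Ccl6 was thus at the sham level in the Lyve1+Folr2+ cells of MI_SB225002 although its level over all macrophages was not.

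The other C1q+ macrophages showed the same order for Ccl2 (868, 641 and 729 CPM), Ccl7 (410, 265 and 323 CPM) and Ccl12 (814, 515 and 545 CPM). Ccl8 there measured 16.2, 59.6 and 18.9 CPM, a larger contrast than in Lyve1+Folr2+ cells but at a lower level. Within every library Lyve1+Folr2+ cells held more Ccl8, Ccl6, Ccl9 and Ccl24 and less Ccl3 and Ccl4 than other C1q+ cells. The log2 ratio between the subsets was 1.73, 0.84 and 2.12 for Ccl8 and -1.21, -0.80 and -1.07 for Ccl4 in sham_vehicle, MI_vehicle and MI_SB225002. Among other C1q+ cells 2 of 9 members were at least 1.5-fold higher after infarction (Ccl8 and Ccl6; 3.98% of genes) and 4 lower (Ccl7, Ccl12, Ccl4 and Ccl24; 3.29% of genes), and with SB225002 Ccl24 was higher (3.7% of genes) and Ccl8 lower (3.5% of genes). Ccl7 was also somewhat higher in Lyve1+Folr2+ cells of each library, with log2 ratios of 0.31, 0.17 and 0.48. Of the 7556 macrophages, 1074 (14.2%) lay within 25% of the Lyve1+Folr2+ limit.

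Arg1+ macrophages, a wound-repair type named for arginase, held more Ccl6, Ccl9 and Ccl24 than Lyve1+Folr2+ macrophages. Ccl6 reached 1650 CPM in MI_vehicle and 1685 CPM in MI_SB225002, against 560 and 372 CPM in Lyve1+Folr2+ cells of the same libraries. Ccl24 was 131 and 283 CPM and Ccl9 was 1050 and 808 CPM, while Ccl12 was low, at 196 and 383 CPM. In MI_SB225002 the Arg1+ cells were 7.17% of cells and held 31.5% of all Ccl6 UMIs and 35.1% of all Ccl24 UMIs. Weighting the subsets to the MI_vehicle makeup gave SB225002 log2 ratios of 0.49 for Ccl24 and -0.33 for Ccl6, against 0.77 and 0.12 without the weights. With the makeup held fixed the Ccl24 ratio was thus under the 1.5-fold line and the Ccl6 ratio below 0.

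Within Arg1+ cells Ccl2 was 667 CPM in MI_vehicle and 1218 CPM in MI_SB225002, Ccl7 396 and 618 CPM and Ccl12 196 and 383 CPM. Ccl3 (178 and 41.0 CPM) and Ccl4 (222 and 84.8 CPM) were lower with SB225002, as was Ccl8 (117 and 53.5 CPM). Of 9 members 4 were at least 1.5-fold higher (12% of genes) and 3 lower (8.8% of genes). Trem2+Spp1+ macrophages, the lipid-associated type, gave Ccl2 of 621 and 1011 CPM and Ccl7 of 223 and 418 CPM, with Ccl8 of 130 and 60.6 CPM. There 2 of 9 members were higher (6.86% of genes) and 1 lower (5.97% of genes). In both subsets Ccl2 and Ccl7 were higher and Ccl8 lower with SB225002. In MHCII+ macrophages, on 74 and 87 cells, 1 of 9 members was higher (Ccl24, 10.4% of genes). There 3 were lower (Ccl3, Ccl4 and Ccl5, 10% of genes). Ccl5 was counted on a single cell, which held 85 of its 86 UMIs in MI_vehicle.

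Ly6c+ monocytes, named for the Ccr2+ cells that give rise to infarct macrophages, showed a wide difference between the infarct libraries. The gate took C1q-low cells with monocyte markers even where they also passed the Spp1 or Arg1 limit, so it can hold Spp1-high cells. It held 241 cells in MI_vehicle and 366 in MI_SB225002, and 15 in sham_vehicle, too few to compare. Ccl2 was 664 CPM (627 to 702) in MI_vehicle and 1782 CPM (1729 to 1836) in MI_SB225002, a log2 ratio of 1.43 (1.33 to 1.52). Cells with a Ccl2 UMI numbered 94 of 241 and 232 of 366, or 23.1% and 51.3% after thinning, against 0% and 3.76% of endothelial cells. Ccl7 was 58.1 and 369 CPM and Ccl12 41.6 and 134 CPM, log2 ratios of 2.67 (2.38 to 2.97) and 1.69 (1.33 to 2.07). All of the Ccr2 ligands were thus higher in these cells with SB225002.

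Of the other members, Ccl4 was 57.6 and 173 CPM and Ccl24 18.1 and 77.8 CPM in the monocytes of MI_vehicle and MI_SB225002. Ccl9 was 475 and 668 CPM, Ccl3 84.2 and 123 CPM and Ccl6 623 and 557 CPM, each within 1.5-fold. In all, 7 of 10 members were at least 1.5-fold higher, where 8.37% of 7575 genes were, and 0 were lower, where 8.66% of genes were; the median log2 ratio was 1.64 for the members and 0.02 for all genes. Ccl8 and Ccl5 were counted among the 7 on single cells: 1 cell held 45 of the 47 Ccl8 UMIs of MI_SB225002, and 1 cell held all 100 Ccl5 UMIs. Without the highest cell of each member 5 members were higher (Ccl2, Ccl7, Ccl12, Ccl4 and Ccl24), and Ccl8 changed sign to -0.95. Requiring C1q below 5 UMIs per 10000 gave 6 higher members, not all of them among the 7. Ccl3 passed the line at a log2 ratio of 0.64 against 0.55, Ccl8 was at -1.10, and Ccl24 was at 0.72 against 2.10.

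Other markers differed between these same monocytes, in both directions. Spp1, a macrophage marker, was 3385 CPM in MI_vehicle and 8067 CPM in MI_SB225002, C1qa 60.8 and 78.6 CPM, and S100a9, the granule gene of neutrophils and monocytes, 8347 and 10672 CPM. C1q+ macrophages had Spp1 at 1644 and 6665 CPM, below this gate in both libraries. Ly6c2 in this gate was 860 and 892 CPM. The part of Spp1-high cells in the chemokine values was not tested. Csf1r (363 and 271 CPM), Arg1 (357 and 208 CPM) and Ptprc, which encodes CD45 (625 and 373 CPM; named after its values were seen), were lower with SB225002. The 24 handling genes summed to 8002 and 4577 CPM, with 15 of the 20 tested at least 1.5-fold lower with SB225002. Their part in the chemokine values was not tested. Spp1 was also present in endothelial cells of MI_SB225002, at 3141 CPM against 19.7 CPM in MI_vehicle, while endothelial Ccl2 was 27.4 and 15.7 CPM. B cells had Spp1 at 5169 CPM in MI_SB225002 and 337 CPM in MI_vehicle, and a Ccl2 log2 ratio of 0.70 with SB225002. The part of free RNA in the monocyte values was not tested.

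C1q-low Spp1+ or Arg1+ cells, which the gate set by high Spp1 or Arg1 with little C1q and no monocyte or MHCII limit passed, were rich in Ccl2. It measured 1108 CPM in 89 cells of MI_vehicle and 1797 CPM in 207 cells of MI_SB225002. Ccl7 was 316 and 521 CPM and Ccl12 24.5 and 103 CPM, while Ccl4 was 307 CPM in MI_vehicle and 3.41-fold lower in MI_SB225002. Of 8 members 3 were higher (10.8% of genes) and 1 was lower (9.45% of genes). Ccl8 had 0 UMIs in MI_vehicle and 3.65 CPM in MI_SB225002. Ccl6 (988 and 772 CPM), Ccl9 (1228 and 969 CPM) and Ccl24 (140 and 134 CPM) were each above the level of all macrophages in both libraries, while Ccl12 and Ccl8 were below it.

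In the neutrophil gate all 8 members with enough UMIs were higher with SB225002, but 21.7% of genes were higher there and 3.01% lower. Median depth in this gate was 12724 UMIs in MI_vehicle and 4071 in MI_SB225002, and Spp1 was 795 and 6046 CPM, so the neutrophil values are not read further. Fibroblasts carried some Ccl2, at 330, 100 and 54.3 CPM in sham_vehicle, MI_vehicle and MI_SB225002.

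Interferon-responsive macrophages, chosen by genes such as Isg15 and Rsad2, were few (21, 39 and 102 cells) but held the highest Ccl12 levels of the populations measured. Ccl12 measured 4562, 2950 and 1602 CPM there, which is 5.24, 6.41 and 3.19 times the level of all macrophages in the same libraries. Ccl2 was 1988, 2487 and 1589 CPM and Ccl7 1300, 1173 and 809 CPM. Ccl8 was 31.9, 588 and 71.8 CPM, the 588 CPM being 150 UMIs in 9 cells. After infarction 3 of 8 members were higher (Ccl8, Ccl4 and Ccl6; 6.69% of genes) and Ccl12 was lower (7.77% of genes). With SB225002 0 of 8 were higher (12% of genes) and 5 were lower (Ccl2, Ccl12, Ccl8, Ccl3 and Ccl4; 11.1% of genes). The direction with SB225002 was thus opposite to that in Ly6c+ monocytes for Ccl2, Ccl12 and Ccl4, and the difference between the populations was not tested.

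Dividing macrophages (361, 318 and 554 cells) held Ccl7 at 336, 184 and 342 CPM, Ccl24 at 52.9, 41.6 and 78.5 CPM and Ccl6 at 143, 246 and 284 CPM. After infarction 2 of 9 members were higher (Ccl8 and Ccl6, where 3.43% of genes were) and Ccl7 was lower (3.39% of genes). Ccl12, counted as lower in all macrophages, stayed within 1.5-fold here, at 573 CPM in sham_vehicle and 403 CPM in MI_vehicle. With SB225002 3 were higher (Ccl7, Ccl3 and Ccl24; 4.29% of genes) and 0 lower (5.25% of genes). Over all kept cells without a gate, 3 of 10 members were higher (10.3% of genes) and 2 lower (4.15% of genes) after infarction, the same 5 as in macrophages. With SB225002 Ccl2, Ccl7 and Ccl24 were higher (4.5% of genes) and Ccl8 lower (8.46% of genes).

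Macrophages held most UMIs of the Ccr2 ligands, and less so after infarction. Their share of Ccl2 UMIs was 95.9% in sham_vehicle, 76.2% in MI_vehicle and 66.1% in MI_SB225002, beside 87.8%, 67.4% and 67.4% of all UMIs. For Ccl12 the share was 95.8%, 91.8% and 87.2%, and for Ccl8 92.7%, 90.4% and 79.8%. Ccl12 thus stayed mainly a macrophage transcript in the infarct libraries, while Ccl2 was as common outside the macrophage gate as within it in MI_SB225002.

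Within a library the members differed in how far they went with the handling genes. Macrophages were divided into 5 bins of summed handling-gene level, with limits set so that MI_vehicle fills them equally. From the lowest to the highest bin Ccl4 went from 49.0 to 353 CPM in sham_vehicle, from 33.4 to 228 CPM in MI_vehicle and from 66.7 to 267 CPM in MI_SB225002. Ccl3 went from 17.9 to 135 CPM, from 21.4 to 106 CPM and from 31.5 to 180 CPM, and Ccl2 from 507 to 1348 CPM, from 347 to 767 CPM and from 650 to 1095 CPM. All of these were higher in the highest bin of each library. Ccl12 was flatter, from 768 to 949 CPM, 401 to 449 CPM and 445 to 499 CPM, and Ccl6 was lower in the highest bin of both infarct libraries (590 to 358 CPM and 668 to 502 CPM). MI_SB225002 had 1114 macrophages in the lowest bin and 156 in the highest. With bins weighted to MI_vehicle, the SB225002 log2 ratio was 0.50 for Ccl3 and 0.37 for Ccl4, and 0.54 for Ccl2.

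**Figure D4:**
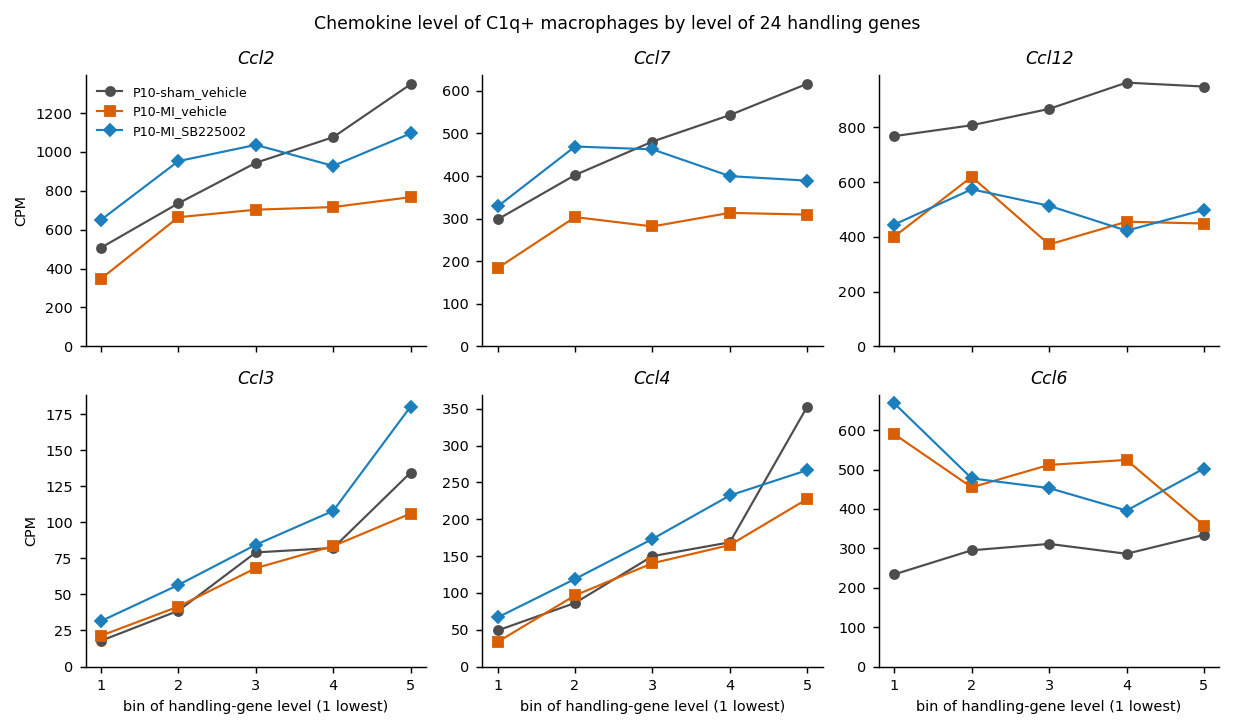
Level of 6 members in CPM across 5 bins of summed handling-gene level in C1q+ macrophages, 1 line per library. Ccl2, Ccl3 and Ccl4 are higher in the highest than in the lowest bin of every library, and Ccl12 differs less between those bins.

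Ccl5 was seen in too few macrophages for its pairs to be counted in all 3 libraries. Of the 36 pairs of the other members, 22 were seen together more often than independent detection would give in all 3 libraries. A further 2 were seen together less often in all 3, and 12 did not go in 1 direction. Ccl3 and Ccl4 were both seen in 62, 55 and 80 thinned macrophages of sham_vehicle, MI_vehicle and MI_SB225002, which is 2.50, 2.95 and 2.60 times the number under independence, the highest ratio of the 36 pairs. The ratio for Ccl2 and Ccl7 was 1.34, 1.55 and 1.5. It was below 1 for Ccl4 and Ccl24 (0.710, 0.879 and 0.703) and for Ccl12 and Ccl24 (0.856, 0.676 and 0.921). Across 28 populations by library, which share libraries and gates, the levels of Ccl2 and Ccl7 had a Pearson r of 0.91 on the log2(CPM + 1) scale, Ccl3 and Ccl4 of 0.92, Ccl6 and Ccl9 of 0.91 and Ccl12 and Ccl8 of 0.84. By contrast the neighbours Ccl5 and Ccl9 had an r of 0.13, and Ccl4 and Ccl9, which are not neighbours, had one of 0.87. Each r is a description over points that share libraries.

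Over the same populations and 4637 genes, the genes most like each member in level were as follows. Ccl2 was nearest to Ccl7, Rab7b (r = 0.89) and Kcnk13 (0.87), and Ccl7 to Ccl2, Uap1l1 (0.91) and C3ar1 (0.90), the receptor of complement C3a. Ccl12 lay nearest to the complement genes C1qb and C1qc (both 0.94) and to Pf4 (0.93), and Ccl8 to C1qc (0.89), Fcna and Lyve1 (both 0.87). C1q genes set the macrophage gate and Lyve1 a subset gate, so these likenesses were in part built in. Ccl3 was nearest to Pla2g7 (0.94), Tyrobp and Mpeg1 (both 0.93), and Ccl4 to Clec5a (0.94), the receptor Ccr1 and Ccl3 (both 0.92). For Ccl6 the nearest were Lyz2 (0.95), Tlr2 and Itgam (both 0.94), general myeloid genes, and for Ccl9 Atp6v0b, Dok2 and Mitf (each 0.95). Ccl24 was nearest to the heme-degrading enzyme Hmox1, to Slc37a2 (both 0.87) and to the lipid-droplet gene Plin2 (0.86). Ccl5 had only weak neighbours, Olfm1 (0.74), Ccl22 (0.73) and Ctnnd2 (0.65).

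Of 25 receptors, atypical receptors and further ligands of the CC family, 6 had enough UMIs for a ratio in macrophages. After infarction 1 of the 6, Ccr2, was at least 1.5-fold higher, where 5.39% of all genes were. It was at 43.8 CPM in sham_vehicle and 96.2 CPM in MI_vehicle. Of the 6, 0 were lower, where 2.66% of all genes were. Ccr1 (228, 189 and 204 CPM), a receptor of Ccl3, Ccl5, Ccl6 and Ccl9, stayed within 1.5-fold in both comparisons. With SB225002 Ccrl2 was higher (4.26 and 7.80 CPM), where 4.06% of all genes were. Ccl27a was lower (5.63 and 3.59 CPM), where 6.84% of all genes were, with Ccl25 at 7.56 and 7.04 CPM. In Ly6c+ monocytes 2 of 4 genes were higher with SB225002, where 8.37% of all genes were: Ccr1 (207 and 331 CPM) and Ccrl2 (8.53 and 14.1 CPM). The monocyte Ccrl2 ratio rests on 16 and 34 UMIs. Its log2 value of 0.72 (-0.17 to 1.68) does not exceed counting error. Ccr2 there was 947 and 805 CPM, so the receptor of the Ccl2 group was not higher where its ligands were. In C1q-low Spp1+ or Arg1+ cells Ccr2 was 75.7 and 168 CPM.

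The remaining genes of the list lay in other cells. The dendritic-cell ligands Ccl17 and Ccl22 reached 170 and 372 CPM in MHCII+ C1q-low cells of MI_SB225002, and Ccr7, which guides dendritic cells to lymph nodes, 281 CPM in the same gate of MI_vehicle. Ccr6 reached 62.3 CPM in sham_vehicle B cells and Ccr9 14.9 CPM in MI_vehicle monocytes. The scavenging receptors Ackr1 and Ackr2 reached 35.4 and 23.6 CPM in MI_vehicle endothelial cells, on 9 and 6 UMIs, and Ackr4 62.0 CPM in fibroblasts of MI_SB225002. Ccr3, the receptor of Ccl24, was at 1.58, 1.08 and 1.09 CPM in the macrophages of sham_vehicle, MI_vehicle and MI_SB225002, and passed 10 CPM only in Ace+ monocytes, on 1 UMI. Ccl25 and Ccl27a passed it in B cells (3 UMIs) and fibroblasts (12 UMIs) of MI_SB225002. Ccr8, which binds Ccl8, had 0 UMIs in the kept cells of each library, which allows up to 0.139, 0.115 and 0.0955 CPM. The receptors of Ccl8 and Ccl24 were thus at or near 0 in the sorted cells at this depth.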

How the data were processed

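Single-cell RNA libraries of CD45+F4/80+ cells of infarct and border zones (3 libraries, 1 per condition) were analysed as UMI counts per gene and cell. The authors deposited these counts as matrices that were not normalized. The submitters' notes name Seurat 4.1.0 and mm10, and the aligner and counter are not given in the sources used here. Zones of several hearts were pooled. The matrices held 3390, 4511 and 5783 barcodes (sham_vehicle, MI_vehicle, MI_SB225002), and the limits of the study's methods (500 to 30000 UMIs, 500 to 5000 genes, mitochondrial share under 10%) left 2351, 3453 and 4744 cells with 21655083, 26121162 and 31400723 UMIs.

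Cells were gated by marker UMIs per 10000. No doublet caller was run. Gate limits were set after the marker distributions, but not the chemokine values, had been seen. UMIs were summed per gate and library and divided by the gate's total (CPM). Exact Poisson, Clopper-Pearson and conditional binomial 95% intervals cover counting error only, and amplification or capture error is not in them. A gene with 0 UMIs was given the level of 3 UMIs as its limit. A ratio was formed where a gene's UMIs in the pair of libraries came to 50 or more, and ratios of 1.5-fold or more were counted, with no test. Shares of cells used cells thinned to 2000 UMIs, leaving out shallower cells (81, 224 and 330 macrophages). Correlations used log2(CPM + 1) over populations of at least 30 cells and genes reaching 100 CPM. The members and gene lists were chosen with earlier results of these data known. The genes named are the members, the list genes that reach 10 CPM in a gate, the 3 genes most like each member and gate markers. Values of 1 gene of the list are not reported here. Isg15, Rsad2 and the example values of Spp1, C1qa and S100a9 are gate markers. The ratio procedure was checked on simulated counts. Loci are from GENCODE vM21 and promoters from RefSeq (GRCm38.p6).

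Python 3.11.15 with numpy 2.4.6, scipy 1.17.1 and pandas 2.3.3, matplotlib 3.10.9, and R 4.3.3 with edgeR 4.0.16 (TMM factors) and DESeq2 1.42.0 (size factors) were used. Alternatives were another normalization, thinning, log means, other cell and gate limits, fixed subset and handling-gene makeup, and barcodes of 1 library alone.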

Additional observations from a re-analysis of the deposited data

Results flagged for a closer look

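Cells outside the populations compared above held a share of Ccl3 and Ccl4 out of scale with their number. The mast cell or basophil gate took 3 cells, all in MI_vehicle. The 2 of them with Mcpt8, a basophil protease, had 10720 UMIs together. Ccl3 stood there at 8209 CPM (6584 to 10114), on 88 of the 1608 Ccl3 UMIs of the library (5.47%), and Ccl4 at 10261 CPM (8434 to 12368), on 110 of 3094 (3.56%). Macrophages of the same library were at 63.6 and 131 CPM. Both values come from 1 library without a repeat, and these cells were chosen after their values were seen.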

How the results depend on the processing

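No paired analysis was possible because each condition has 1 library and none carries a replicate number; for the same reason no library could be left out. After infarction the 3 members counted as higher became 1 (Ccl8) with cells thinned to 1000 UMIs and 0 by the mean of log-normalized values, and the 2 counted as lower became 0 at 2-fold and 1 (Ccl12) with subsets weighted to the MI_vehicle makeup, and were 3, Ccl2 included, by log means or without barcodes of more than 1 library. With SB225002 the 1 higher member (Ccl24) became 2 with TMM factors or DESeq2 size factors (Ccl7 and Ccl24), 3 without a gate (Ccl2, Ccl7 and Ccl24), 2 without the highest cell of each member (Ccl5 and Ccl24), and 0 by log means, at 2-fold, with subsets weighted, or without barcodes of more than 1 library. The 1 lower member (Ccl8) became 0 with thinning, by log means or at 2-fold, and 2 (Ccl8 and Ccl5) under a mitochondrial limit of 5%, with cells of more than 1 type kept, with subsets or handling-gene bins weighted, or without shared barcodes. Log means and 2-fold change the scale or the line itself; the cause of the other moves was not tested.

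Over all alternatives Ccl12 ranged from -1.24 to -0.75 and Ccl8 from 0.11 to 1.39 (log2) after infarction, and Ccl7 from 0.20 to 0.69, Ccl24 from 0.03 to 0.92 and Ccl8 from -1.13 to -0.12 with SB225002. Leaving out the highest cell, and every alternative for monocytes, was chosen after seeing the data. In monocytes Ccl2 ranged from 1.31 to 1.77 and Ccl7 from 2.41 to 3.26. Ccl8 there turned from 3.19 to -0.95 without its highest cell, on 3 and 2 UMIs, and to -1.10 with C1q below 5 UMIs per 10000. In all, 248 values of single members moved by less than their interval, 126 moved by more, and 2 past 1.5-fold changed sign, as given for monocyte Ccl8. A further 24 changed sign where the reported ratio was short of 1.5-fold (Ccl3, Ccl4, Ccl5 and Ccl6 with SB225002, Ccl9 and Ccl24 after infarction). Depth limits Ccl5 and Ccl8 outside macrophages and every value from under 100 cells, and with 1 library per condition no value here carries the spread between hearts.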
